A study of Nicrophorus vespilloides with 60 samples.

Results

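This report describes how larvae of the burying beetle *Nicrophorus vespilloides* from lines that had evolved with parental care responded in head gene expression when care was taken away. The libraries were chosen by their labelled line and environment: 11 libraries of full-care-evolved families raised without care (5 of line F1 and 6 of line F2) were compared with 12 libraries of full-care-evolved families raised with care (6 of F1 and 6 of F2). These are 23 of the 46 RNA libraries and of the 60 samples in the series.

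Burying beetles breed on the carcass of a small vertebrate. The parents strip and bury it, coat it with exudates that carry antimicrobial enzymes such as lysozyme, open a feeding hole, and feed the larvae that beg from them, although larvae of this species can also feed by themselves. First-instar larvae that hatch after their parents are gone must therefore feed from the carcass by themselves, and they meet its microbes without the parents' further help. Known responses of insect larvae to diet, microbes and growth include the enzymes that handle foreign compounds, immune effectors, and the proteins of the cuticle, which is rebuilt from moult to moult.

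The study kept the full-care population as 2 replicate lines, F1 in block 1 and F2 in block 2, so a difference between the lines cannot be told apart from a difference between blocks. All families here, in both environments, came from the full-care population and belonged to generation 30. The no-care larvae (F1_NC and F2_NC) had both parents removed at 53 h after pairing, that is after the parents had prepared the carcass and laid, and the full-care larvae (F1_FC and F2_FC) kept them. Larvae of both environments were collected at 80 h, only from surviving families of similar brood size, and each library pooled RNA from 4 heads of 1 family, so the spread below is the spread between families. The total of a library was 106519026 to 126570091 counts in the no-care libraries (median 113278394) and 108418440 to 136956219 in the full-care libraries (median 121980630). No 2 libraries were identical. Identifiers carry no gene names, and 2056 of the 13761 could be paired with a RefSeq symbol, so named genes are a part of those that changed. Product names were known for 82 of them, and apart from cuticle proteins the markers of head cell types were not among these, so the tissue label was not checked. In whole heads, fewer cells of a type and less RNA per cell cannot be told apart.

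Loss of care shifted a large part of the larval head transcriptome, with the same direction of change in both lines. A gene was called changed when its Benjamini-Hochberg adjusted p in edgeR's quasi-likelihood test was under 0.01 and its fold change at least 2. With the block as a covariate, 826 of 11730 tested genes were called (7.04%), 500 higher without care (4.26%) and 326 lower (2.78%). By the adjusted p alone, 3914 genes passed (33.4%), of which 1774 were higher and 2140 lower. The environment took 26.9% of the variance between libraries (permutation test within lines, p = 1e-05, the smallest these permutations can give, adjusted p = 7e-05 over 7 tests on whole libraries). The line took 5.15% (permutation p = 0.0765, adjusted p = 0.107) and the line by environment term 2.83% (permutation p = 0.537, adjusted p = 0.626).

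On the first principal component the 2 environments did not overlap. The no-care libraries lay from 12.5 to 78.8, with a median of 48.0, and the full-care libraries from -102 to 1.54, with a median of -58.6. The full-care libraries were the more scattered. Families F2_26, F2_31 and F2_32 lay at 1.54, 1.12 and -3.23, next to the no-care libraries, and F2_27, F2_28 and F2_34 at -76.0, -102 and -88.7. In F1, families F1_18 and F1_20 lay at -8.94 and -13.7, and the other 4 full-care families between -72.3 and -49.8.

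**Figure D1:**
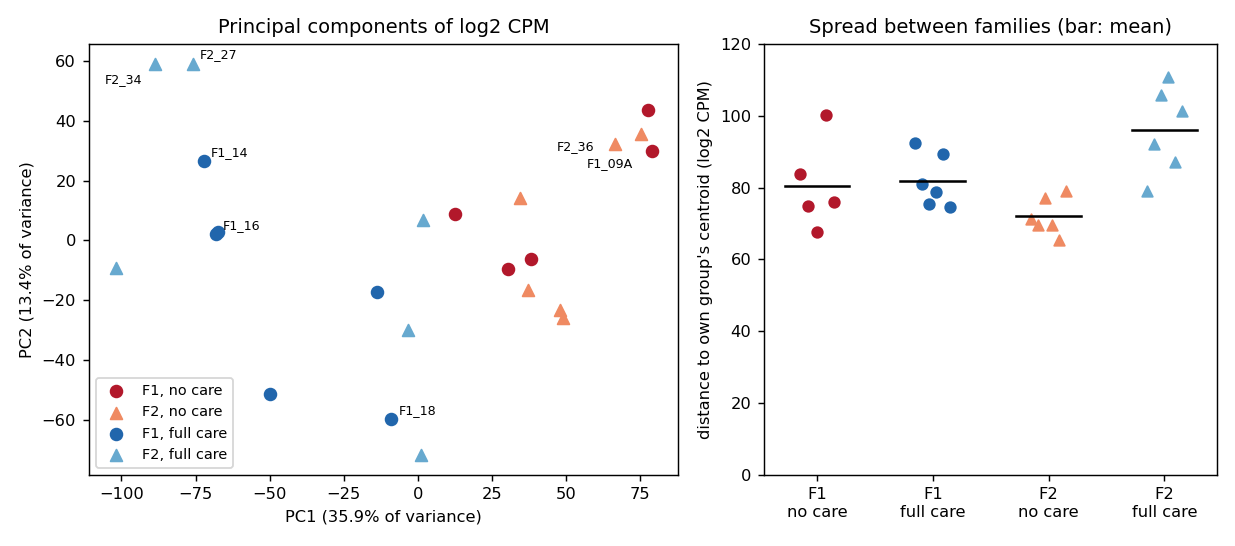
Left, principal components 1 and 2 of log2 CPM, one point per library (family), with no-care families in red and orange and full-care families in blue. Right, the distance of each library to its own group's centroid in log2 CPM, with the group mean as a bar. The no-care libraries lie between 12.5 and 78.8 on component 1 and the full-care libraries between -102 and 1.54, and the F2 full-care families have the highest mean distance, 96.1.

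The lines responded alike in direction. In a fit with 4 groups, 295 genes were called in F1 (2.51%), 233 higher (1.99%) and 62 lower (0.529%), and 389 in F2 (3.32%), 193 higher (1.65%) and 196 lower (1.67%). By the adjusted p alone, 1255 genes passed in F1 (10.7%) and 1900 in F2 (16.2%). All 500 genes called higher and all 326 called lower in the pooled fit had the same sign in F1 and F2, where both lines contribute to the pooled call, and 92 of them higher and 37 lower passed both thresholds in each line. When each line was fitted by itself, so that no library was shared, F1 called 192 genes (1.64%), 152 higher (1.3%) and 40 lower (0.341%), and F2 216 (1.84%), 121 higher (1.03%) and 95 lower (0.81%). The adjusted p alone passed 5.96% of genes in F1 and 9.1% in F2. Of the 192 called in F1, 189 (98.4%) had the same sign in F2 and 74 (38.5%) were called there too, with a median absolute log2 fold change of 1.64 over the F1 calls. Of the 216 called in F2, 214 (99.1%) had the same sign in F1 and the same 74 (34.3%) were called. Across the 11730 genes, which are not independent replicates, the log2 fold changes of the 2 lines correlated with r = 0.775 (Spearman 0.757) and shared their sign in 82.8%. For the 8000 genes averaging 500 or more normalised counts, r was 0.885.

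**Figure D2:**
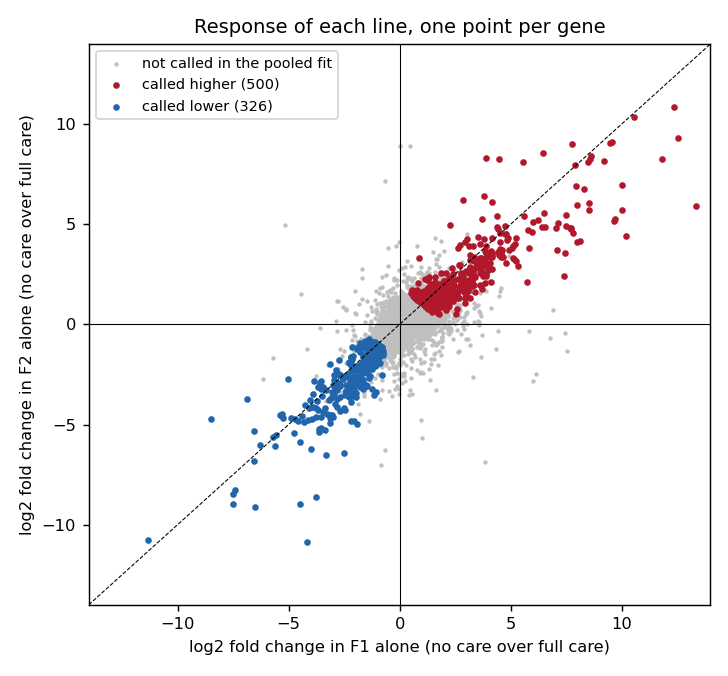
Log2 fold change of no care over full care in F2 fitted alone (vertical) against F1 fitted alone (horizontal), one point per tested gene, with equal change as the dashed line. The 500 genes called higher in the pooled fit (red) lie in the upper right and the 326 called lower (blue) in the lower left quadrant. The correlation over all 11730 genes is 0.775.

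No gene was called as responding differently in F1 and F2. The test of the difference between lines gave 0 calls (0%) in edgeR, with a lowest adjusted p of 0.999, against 438 genes at an unadjusted p under 0.05, and DESeq2 called 2. The gene with a symbol and the lowest p was LOC108556664 (unadjusted p = 0.00311). It had 7.66 to 9.20 CPM in the F1 no-care libraries and 4.48 to 5.40 CPM in the F1 full-care libraries, but 6.21 to 9.67 CPM in F2 without care and 4.36 to 10.3 CPM in F2 with care. LOC108557478 moved in the values of F2 instead, at 35.6 to 43.8 CPM without care and 51.7 to 71.8 CPM with care, while F1 had 41 to 60.2 CPM without care and 36.9 to 67 CPM with care. LOC108556771 had a median of 7.22 CPM without care and 3.41 CPM with care in F1, against 5.96 CPM without care and 6.76 CPM with care in F2. These 3 differences did not pass adjustment. LOC108557815, LOC108556747 and LOC108558371 were called in F1, with log2 fold changes of 2.04, 1.34 and 1.2 (edgeR adjusted p = 0.00659, 0.00882 and 0.00713), and had 0.39, 0.41 and 0.49 in F2. Their differences between lines had unadjusted p of 0.0246, 0.0649 and 0.1 in edgeR, so a call in 1 line does not show a response of 1 line. Nor do the 0 calls show equal responses, because the test can miss real differences. In counts simulated with a log2 difference of 3 between lines, it called 75 of 100 changed genes.

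The largest rises were genes close to silent in larvae with parents. LOC108557453 had a median of 88.6 CPM in the 11 no-care libraries (lowest 8.56, highest 1030), against a median of 0.0822 CPM in the 12 full-care libraries (lowest 0, highest 2.75). In F1 the no-care libraries held 36.1, 88.6, 59.2, 98.6 and 1030 CPM. The groups did not overlap, and the pooled log2 fold change was 9.80 ± 1.24 (SE, edgeR adjusted p = 2.31e-06), with 11.8 in F1 and 8.24 in F2. The full-care libraries had a median of 10.5 counts, so the size of this fold rests on few counts.

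LOC108557693 had a median of 21.6 CPM without care (0.921 to 287 CPM) and 0.111 CPM with care (0.0447 to 0.251 CPM), a log2 fold change of 8.66 ± 0.94 (SE, edgeR adjusted p = 3.79e-07). LOC108558332 had a median of 3.02 CPM without care (0.429 to 48.2 CPM) and was at 0 in 9 of the 12 full-care libraries, with at most 0.396 CPM there, and its log2 fold change was 7.38 ± 1.09 (SE, adjusted p = 1.47e-05 in edgeR). LOC108557455 rose by a log2 fold change of 5.56, with 0.885 to 31.6 CPM without care and 0 to 0.792 CPM with care. In each of these genes every no-care library lay above every full-care library, which was so for 90 of all tested genes (0.767%), and LOC108558213 showed it too, at 0.467 to 13.2 CPM against 0 to 0.415 CPM. The 2 largest rises of the whole table had no symbol, gene11815 (median 40 CPM without care, 0 CPM with care, log2 fold change 11.5) and gene11814 (median 14.4 CPM without care, 0 CPM with care, log2 fold change 10.5), which have consecutive identifiers.

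The size of these rises depended on the family. Among the no-care libraries F1_09A and F2_36 were the highest for LOC108557453 (1030 and 643 CPM), for LOC108557693 (287 and 163 CPM) and for gene11815 (682 and 397 CPM), and F2_47 was the lowest for LOC108557453 (8.56 CPM) and LOC108557693 (0.921 CPM). F1_09A was the highest library for 243 of the 500 called rises (48.6%), against 8.60% of all tested genes, and F1_09A and F2_36 were the 2 highest for 130 (26%), against 2.34% of all tested genes. Called rises were picked for high no-care values, partly through these families, so their shares and those of all tested genes are not like for like. Without F1_09A the F1 fit called 109 genes, and without both families the pooled fit called 571, of which 561 were among the 826, an alternative chosen after seeing the data.

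Other rises that passed in both lines were smaller. LOC108556349 had a median of 44.7 CPM without care (25.5 to 145 CPM) and 11.1 CPM with care (4.19 to 35 CPM), a log2 fold change of 2.23. LOC108557764 had 22.1 ± 6.92 CPM without care (SD, n = 11) and 7.42 ± 5.29 CPM with care (SD, n = 12), and LOC108557216 had 35.7 ± 18.9 CPM without care and 12.4 ± 4.99 CPM with care (SD, the same n). Log2 fold changes of LOC108557295 and LOC108558390 were 3.99 and 3.67. All 11 no-care libraries lay above the full-care median in these 5 genes. Among the genes called higher with the highest CPM were LOC108558050, with 364 ± 119 CPM without care and 142 ± 44.2 CPM with care (SD, n = 11 and 12), and LOC108558052, with 241 ± 80.2 CPM without care and 96.7 ± 29.3 CPM with care (SD, same n). LOC108558321 rose by 1.12 ± 0.10 (SE) on the log2 scale, from edgeR with an adjusted p of 3.93e-08, at 112 to 203 CPM without care and 62.7 to 112 CPM with care. LOC108557039 and LOC108556842 rose by 1.38 and 1.01 in the pooled fit. LOC108557039 did not pass in F1 (edgeR adjusted p = 0.0143). LOC108556842 passed in neither line (edgeR adjusted p = 0.219 in F1 and 0.0278 in F2). The call of LOC108556842 was lost in 20 of its 29 alternative fits.

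Some rises without overlap were smaller than 2-fold and so were not called. LOC108557505 held 58.0 to 82.3 CPM in the no-care libraries and 37.3 to 53.5 CPM in the full-care libraries, with a log2 fold change of 0.66 ± 0.06 (SE, edgeR adjusted p = 3.07e-08). LOC108557889 held 23.8 to 34.3 CPM without care and 13.6 to 21.7 CPM with care, and LOC108557101 65.1 to 92.4 CPM without care and 35.4 to 60.2 CPM with care. None of these 3 overlapped between environments.

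Several falls shared by both lines separated the environments without overlap. LOC108557652 had a median of 478 CPM in the no-care libraries (410 to 751 CPM) and 1540 CPM in the full-care libraries (949 to 1950 CPM). It fell by 1.53 on the log2 scale (SE 0.146, edgeR adjusted p = 8.92e-08), with -1.41 in F1 and -1.64 in F2. LOC108556328 had 140 to 237 CPM without care and 296 to 438 CPM with care, a log2 fold change of -1.10 ± 0.09 (SE, edgeR adjusted p = 2.15e-08). LOC108557397 had 55.7 to 104 CPM without care and 136 to 221 CPM with care, with log2 fold changes of -0.92 in F1 and -1.39 in F2 (unadjusted p of the difference 0.0115 in edgeR, not passing adjustment). No library of one environment reached the other in any of these genes.

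LOC108556689, LOC108556348 and LOC108556819 also separated the environments without overlap, with log2 fold changes of -1.10, -1.08 and -1.05. LOC108556759 had the lowest pooled p among falls with a symbol, at 53.5 ± 9.13 CPM without care and 107 ± 10.2 CPM with care (SD, n = 11 and 12). Its log2 fold change of -1.0 lies at the fold threshold, and 21 of its 29 alternative fits put it just under, with an adjusted p of at most 6.8e-08 when a library was left out of the edgeR fit. LOC108556774 fell by 1.07 and LOC108558373 by 1.47 on the log2 scale, with 10 and 8 of the 11 no-care libraries below every full-care library.

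**Figure D3:**
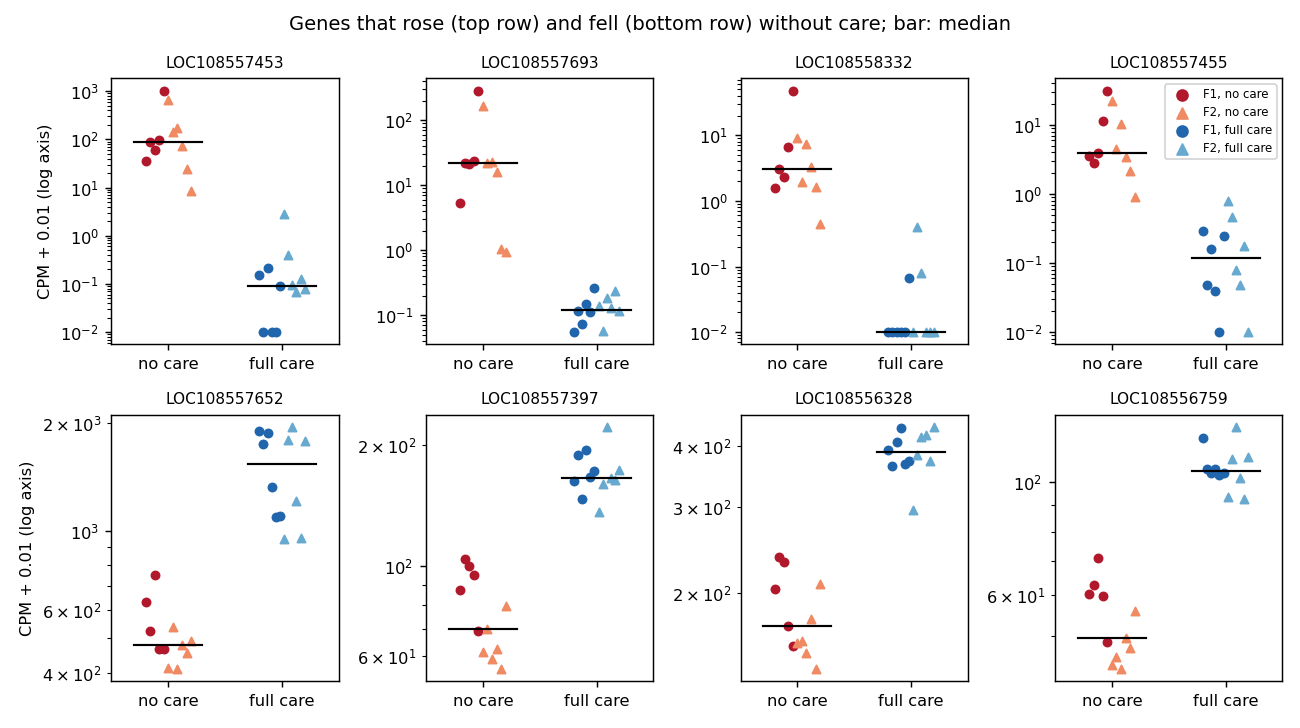
CPM + 0.01 on a log axis in each no-care library (left of each panel) and each full-care library (right), with medians as bars, for 4 genes that rose (top row) and 4 that fell (bottom row). The environments do not overlap in any of the 8 genes. LOC108557453 lies at 8.56 to 1030 CPM without care and 0 to 2.75 CPM with care, and LOC108556328 at 140 to 237 CPM without care and 296 to 438 CPM with care.

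Called rises and called falls differed in level, which the direction of the call partly sets. The 500 called rises had a median log2 fold change of 1.76 and a median level of 3.50 CPM without care and 0.749 CPM with care, and 158 of them had a mean under 1 CPM. The 326 called falls had a median log2 fold change of -2.01 and a median level of 9.48 CPM without care and 41.1 CPM with care, and 28 had a mean under 1 CPM. Over all 11730 tested genes the median level was 12.9 CPM without care and 12.8 CPM with care, and 9711 had a mean of at least 1 CPM. The median within-group SD on the log2 scale was 0.955 for the called rises and 1.23 for the called falls, against 0.347 over all tested genes. In 377 genes (3.21%) the environments did not overlap at all. In 287 of these (2.45%) all 11 no-care libraries were below all 12 full-care libraries. Their median log2 fold change was -0.68, and 31 of them were called. Their median within-group SD was 0.175, a measure that the choice of genes without overlap itself lowers. In the opposite direction, the 90 genes with all no-care libraries above had a median of 0.84, and 41 were called. Among the 182 genes with a mean of at least 1000 CPM, 9 fell and 0 rose under both thresholds, against 2.78% and 4.26% of all tested genes. By the adjusted p alone, 39 of them were higher and 22 lower, against 1774 and 2140 of all 11730 tested genes.

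Many of the large falls were carried by part of the full-care families. LOC108558249 had 2570, 1570, 2080 and 3940 CPM in families F1_14, F1_16, F2_27 and F2_34, 11 to 463 CPM in the other 8 full-care families, and 17.1 to 164 CPM in the no-care families. LOC108557734 had 2320, 1260, 1660 and 4040 CPM in the same 4 families, 8.40 to 109 CPM in the other 8 and 14.4 to 82.3 CPM without care. The environments overlapped in both genes, apart from those families. The unnamed gene11261 was at 52.4, 16.6, 39.1 and 31.8 CPM in the same 4 and at no more than 0.126 CPM in any other library, and it had 0 counts in 9 of the 11 no-care libraries.

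LOC108557031 had 138, 92.7, 77.8 and 55.2 CPM in these 4 families, and 0.775 to 32 CPM in the other 8 full-care families, against 0.419 to 1.62 CPM without care (log2 fold change -4.95 ± 0.90, SE, edgeR adjusted p = 0.000144). Of the 326 called falls, 102 (31.3%) had exactly these 4 families as their 4 highest libraries, against 3.18% of all tested genes. Called falls were picked for high full-care values, partly through these families, so the 2 shares are not like for like. Both lines held such families, 2 in each. Without the 4, an alternative chosen after seeing the data, 400 genes were called, 318 higher and 82 lower, and 374 of the 400 were among the 826. LOC108558249 then had a log2 fold change of -1.44 (edgeR adjusted p = 0.0519) and LOC108557734 of 0.31 (adjusted p = 0.571, edgeR), whereas LOC108557031 was still called at -2.32 (adjusted p = 0.00396, edgeR).

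**Figure D4:**
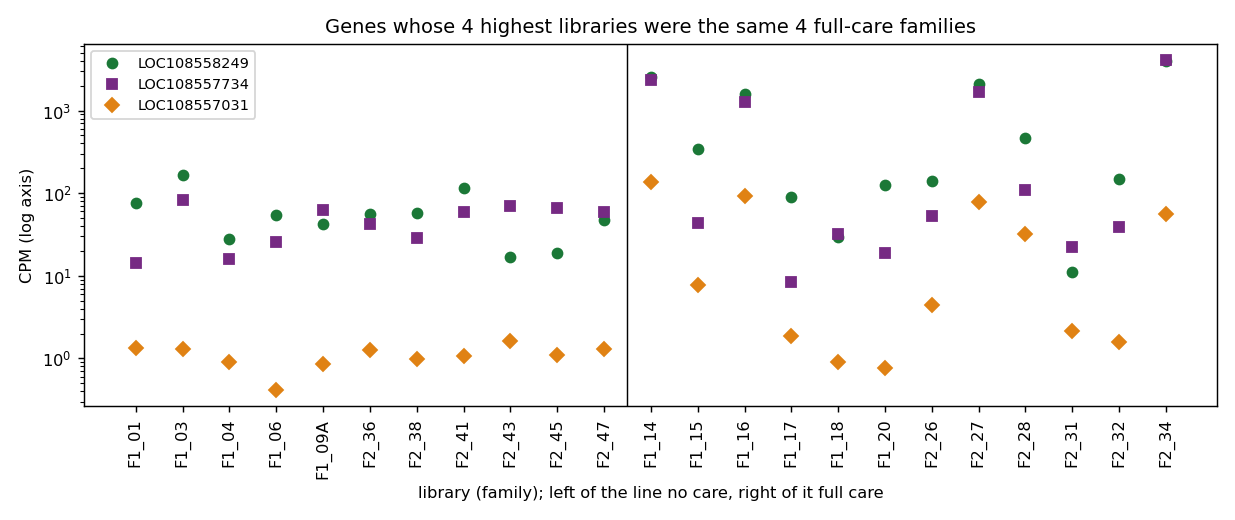
CPM on a log axis of LOC108558249, LOC108557734 and LOC108557031 in each library, with the no-care families left of the line and the full-care families right of it. Families F1_14, F1_16, F2_27 and F2_34 stand above all others, at 1260 to 4040 CPM for LOC108558249 and LOC108557734 and 55.2 to 138 CPM for LOC108557031.

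Called genes often had neighbours called in the same direction. By identifier number, which follows the annotation's order, 153 of the 500 rises (30.6%) stood next to another called rise, against 7.12% of all tested genes, and 14 (2.80%) next to a called fall, against 4.55%. Of the 326 falls, 111 (34%) stood next to another called fall and 14 (4.29%) next to a called rise. The longest stretches were 5 consecutive rises, found at 2 places of which one holds gene11814 and gene11815, and 9 consecutive falls, found at 1.

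The stretch with the most symbols held 7 consecutive identifiers that all fell, singled out after its values were seen. These are LOC108557226, LOC108557227, LOC108557228, LOC108557229, LOC108557231, 1 gene without a symbol here and LOC108557233. LOC108557226 had a median of 4.28 CPM without care (0.317 to 10.9 CPM) and 55.6 CPM with care (1.48 to 218 CPM), a log2 fold change of -4.04 ± 0.79 (SE, edgeR adjusted p = 0.00032). LOC108557227 had a median of 20.4 CPM without care (2.88 to 57.7 CPM) and 134 CPM with care (23.9 to 329 CPM), and LOC108557228 had 60.3 CPM without care (9.15 to 132 CPM) and 194 CPM with care (17 to 551 CPM). The log2 fold changes of LOC108557229, LOC108557231 and LOC108557233 were -2.63, -2.20 and -1.77. In these 6 genes all 11 no-care libraries lay below the full-care median. Summed over the 7 genes, the no-care libraries had a median of 102 CPM (17.7 to 230 CPM) and the full-care libraries 563 CPM (62.0 to 1030 CPM). The low full-care families were F2_31 with 62.0, F2_32 with 94.4, F1_18 with 140 and F2_26 with 182 CPM, within the no-care range.

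Cuticle protein genes were mostly lower without care in value, and F1_18, F2_31 and F2_32, low for that stretch, were the lowest full-care families here too. These proteins bind chitin and form the hard and flexible parts of the insect exoskeleton. Product names were known for 10 such genes, all tested, from a list that the study chose on libraries including the full-care ones here, so they are no independent evidence of direction. Of the 10, 1 was called lower and 0 higher, against 2.78% and 4.26% of all tested genes, and 2 were higher in value, against 6236 of all 11730 tested genes. The other 8 were lower in value, and the median log2 fold change was -1.59, with -1.24 in F1 and -2.03 in F2, against 0.04 over all tested genes. The called gene was LOC108557124, a larval cuticle protein A3A-like gene named for a protein of the mealworm beetle *Tenebrio molitor*. It had a median of 132 CPM without care (2.08 to 736 CPM) and 785 CPM with care (151 to 2060 CPM), a log2 fold change of -2.08 ± 0.63 (SE, edgeR adjusted p = 0.00977). That call lies at the threshold and was lost in 20 of 29 alternative fits.

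Of the other 9 cuticle genes, 7 had the same sign without passing. LOC108561729, a flexible cuticle protein gene, had a median of 86.1 CPM without care and 268 CPM with care, and edgeR gave an adjusted p of 0.012. LOC108557600 (larval cuticle protein) had 199 CPM without care and 526 CPM with care as medians (adjusted p = 0.0129 in edgeR), and LOC108558459 (pupal cuticle protein) 102 CPM without care and 552 CPM with care (adjusted p = 0.0209 in edgeR). LOC108563891, another larval cuticle gene, had medians of 553 CPM without care and 2120 CPM with care and an adjusted p of 0.0701 in edgeR. LOC108561837, LOC108561102 and LOC108567288 had log2 fold changes of -1.76, -1.68 and -1.5. By DESeq2, LOC108561729, LOC108558459, LOC108557600, LOC108561837 and LOC108561102 were called lower. DESeq2 called more genes than edgeR, with 395 of all 11730 tested genes lower, and the study's choice of the list bears on these calls too.

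A pair of cuticle genes had the opposite sign. LOC108559212 and LOC108559211, both pupal cuticle protein C1B-like, had log2 fold changes of 1.17 and 0.83 (edgeR adjusted p = 0.0362 and 0.113). In F1 the first held 210 to 569 CPM without care and 28.7 to 165 CPM with care, which did not overlap, and in F2 57.8 to 820 CPM without care and 55.9 to 488 CPM with care, which did. LOC108561102, with the same product name, had the sign of the larval genes. Family F1_06, the lowest no-care library for LOC108563891 (5.38 CPM), was the highest F1 library for LOC108559212 (569 CPM).

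Summed over the 10 genes, the F1 no-care libraries held 4890, 1525, 2500, 833 and 1557 CPM, and the F1 full-care libraries 1440 to 7170 CPM (median 5220). The F2 no-care libraries held 884 to 3140 CPM (median 1530) and the F2 full-care libraries 958 to 8390 CPM (median 4320). The environments overlapped. Full-care families F2_31, F1_18 and F2_32, at 958, 1436 and 1572 CPM, lay at the no-care level, and no-care family F1_01 lay at the full-care level. CPM are not divided by gene length, so a sum is led by its longest and most expressed genes.

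**Figure D5:**
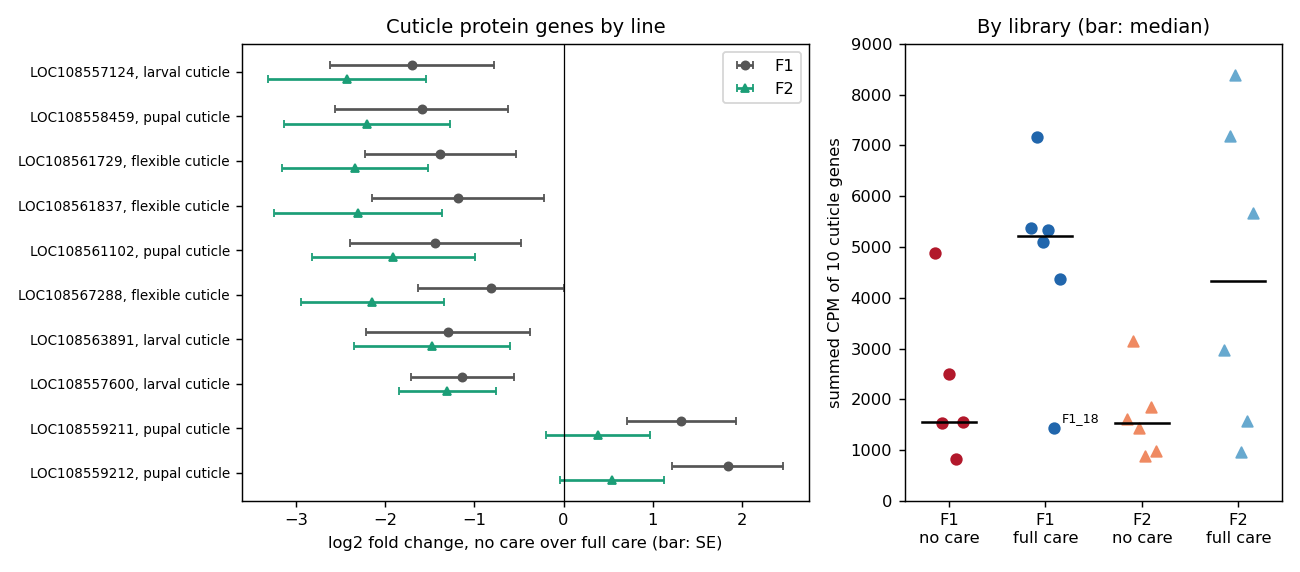
Left, log2 fold change of no care over full care for 10 cuticle protein genes in F1 (grey circles) and F2 (green triangles), with standard errors as bars. Right, the CPM summed over the 10 genes in each library, with group medians as bars. 8 genes lie below 0 in both lines and the C1B-like LOC108559211 and LOC108559212 above, and F1_18 sits at 1436 CPM, apart from the other F1 full-care families.

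The few genes for handling foreign compounds that had a product name were higher without care in value. They come from the same list that the study chose on libraries including the full-care ones here, so they are no independent evidence of direction. Cytochrome P450 enzymes oxidise plant and microbial compounds, insecticides and hormones in insects, and all 4 with a product name were higher in value, as were 6236 of all 11730 tested genes. Of the 4, 1 was called higher, against 4.26% of all tested genes. LOC108566901, a P450 9e2-like gene, had 43.7 ± 20.2 CPM without care (SD, n = 11) and 19.1 ± 9.59 CPM with care (SD, n = 12). All 11 no-care libraries lay above the full-care median, and the log2 fold change was 1.14 ± 0.19 (SE, edgeR adjusted p = 7.51e-05), with 1.12 in F1 and 1.17 in F2. The P450 4C1-like gene LOC108560973 had a median of 42.8 CPM without care and 15.7 CPM with care and did not pass (edgeR adjusted p = 0.033). The other P450 9e2-like genes, LOC108557953 and LOC108557937, had medians of 0.128 and 0.847 CPM without care and 0.037 and 0.498 CPM with care, and adjusted p of 0.0189 and 0.0188 in edgeR. LOC108564048, a UDP-glucuronosyltransferase gene whose products attach sugars to small molecules, rose by a log2 fold change of 1.44, at 0.680 to 3.59 CPM without care and 0.0357 to 1.97 CPM with care, and its call was lost in 13 of 29 alternative fits.

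The few immune genes with a product name went in both directions. Their names come from the same list, which the study chose on libraries including the full-care ones here. They are therefore no independent evidence of direction. Of all tested genes, 4.26% were called higher and 2.78% lower. LOC108566479, a lysozyme C-like gene for an enzyme that cuts bacterial cell walls, had a median of 12.8 CPM without care (7.14 to 35.2 CPM) and 6.01 CPM with care (2.69 to 30.7 CPM). It rose by a log2 fold change of 1.18 ± 0.33 (SE, edgeR adjusted p = 0.00619), with 1.71 in F1 and 0.70 in F2, and the call was lost in 13 of 29 alternative fits. A proclotting enzyme-like gene, LOC108558248, whose namesake clots haemolymph in horseshoe crabs, rose by 1.38, at 4.01 ± 1.71 CPM without care and 1.54 ± 1.0 CPM with care (SD, n = 11 and 12). Its call was lost in 7 of 29 alternative fits. A C-type lectin gene, LOC108560296, from a family of sugar-binding proteins that includes recognition molecules for microbes, fell by 1.19 on the log2 scale, with medians of 27 CPM without care and 48.4 CPM with care. It too was highest in the 4 full-care families named above, and without them had a log2 fold change of -0.59 (edgeR adjusted p = 0.0539). The defensin gene LOC108558285 had medians of 0.223 CPM without care and 0.822 CPM with care and did not pass (edgeR adjusted p = 0.334).

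The other genes of the study's list did not form a group. Of its 82 genes, 78 were tested, 9 were called higher and 4 lower, against 4.26% and 2.78% of all tested genes. The study chose them for a call in another comparison and none in this one, with the full-care libraries in both, so these counts are set partly by that choice. LOC108564791, an inter-alpha-trypsin inhibitor heavy chain H3-like gene, had 102 ± 41.3 CPM without care and 48.1 ± 29.9 CPM with care (SD, n = 11 and 12). LOC108569111, for the ciliary GTPase ADP-ribosylation factor-like protein 13B, and LOC108563905, for a kinase named for its likeness to ribosomal S6 kinase, had log2 fold changes of 1.08 and 1.01. LOC108568634 and LOC108562163, both uncharacterized, also rose. LOC108564697, an NADPH oxidase gene from the family of enzymes that make superoxide, had 53.6 ± 38.6 CPM without care and 158 ± 97.9 CPM with care (SD, the same n), and LOC108564562, an annulin-like gene named for a grasshopper transglutaminase, had 4.51 ± 2.64 CPM without care and 11.8 ± 6.34 CPM with care (SD, same n). Several of these 13 called genes lie outside the rule for named genes and are given because the count is small. The calls of LOC108564697, LOC108563905 and LOC108568634 were lost in 13, 7 and 4 of 29 alternative fits. LOC108564791 kept its call in all 29, and LOC108569111, LOC108562163 and LOC108564562 each lost it in 1.

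Genes of the nervous system and stress response on that list were at low levels or did not pass. The kainate-type glutamate receptor gene LOC108561581 had medians of 0.348 CPM without care and 0.255 CPM with care (log2 fold change 0.90, edgeR adjusted p = 0.0424), and the orexin receptor gene LOC108567943 had 0.0372 CPM without care and 0.0446 CPM with care. The odorant-binding protein genes LOC108562103 and LOC108567230 were under 1 CPM in every library and had opposite signs in the lines, and their differences between lines did not pass adjustment. LOC108564555, a heat shock 70 kDa protein 1A-like chaperone gene, had a log2 fold change of 0.27 (edgeR adjusted p = 0.385). Its level went with the line, at 15.2 to 55.9 CPM in F1 without care and 28.9 to 64.2 CPM in F1 with care, but 4.69 to 8.15 CPM in F2 without care and 2.43 to 6.24 CPM in F2 with care. A pyruvate kinase gene, LOC108560350, for the last step of glycolysis, was higher by the adjusted p alone, with a log2 fold change of 0.77 (edgeR adjusted p = 0.00272).

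Families differed less from each other without care in the pooled test and in F2, and the difference between lines did not pass adjustment. The mean distance of a library to its own group's centroid, on log2 CPM over all tested genes, was 75.8 ± 9.75 without care (SD, n = 11) and 89.0 ± 12 with care (SD, n = 12), a difference of -13.2 (permutation test within lines, two-sided p = 0.0111, adjusted p = 0.0259). In F2 it was 72.0 ± 5.19 without care and 96.1 ± 12 with care (SD, n = 6 each), a difference of -24.1 (permutation test over all 924 label arrangements, two-sided p = 0.00433, adjusted p = 0.0152). In F1 it was 80.5 ± 12.4 without care (SD, n = 5) and 81.9 ± 7.39 with care (SD, n = 6), a difference of -1.47 (permutation test over all 462 label arrangements, two-sided p = 0.82). The difference between the lines, -22.6, had a permutation p of 0.0306 (adjusted p = 0.0536 over the 7 tests). In these tests of spread the distances were not recomputed under each relabelling, so their p are approximate.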

How the data were processed

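RNA from larval heads was sequenced as polyA-selected libraries. Per the study's methods, read trimming by the authors was followed by alignment (HISAT2) and quantification (StringTie) against a RefSeq genome. The authors deposited whole-number counts per gene, without normalization. Of the counts between 1 and 100, 39.6% were multiples of 4 where 25% would be by chance. The cause was not tested, and low counts may be less precise than their size. The 23 RNA libraries of the no-care population took no part in the main tests. They served only in matching symbols by group means and in alternatives over all 46 RNA libraries. The 14 bisulfite samples were not used, and 0 columns lacked a sample.

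Symbols were given only to the 2056 identifiers that the study's supplementary files pair with one, directly for 82 genes and by matching both group means for 1989 genes (relative tolerance 1e-05). All 2056 symbols were in the RefSeq gene table, which held no products, positions or sequences. Of tested genes with a symbol 7.12% were called, and of those without 7.03%.

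The main tool was edgeR 4.0.16 under R 4.3.3, with TMM scaling, its quasi-likelihood test and Benjamini-Hochberg adjustment. A gene was tested when 3 of the 23 libraries (10%) reached 15 counts. The pooled fit had line (block) and environment, and a fit of 4 groups gave F1, F2 and their difference. CPM used TMM-scaled library sizes, and log2 CPM a prior count of 2. Variance shares used vegan 2.7.1 with 99999 permutations and spreads 1e+05. As alternatives, DESeq2 1.42.0 was run (also with fold changes shrunken by ashr 2.2.63), as were its size factors in edgeR, other filters and thresholds, no block, all 46 libraries in one fit, and each library left out.

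Named genes were, among genes with a symbol, the 10 largest rises and falls passing in both lines with a mean of at least 1 CPM, the 5 lowest p in each direction, the 3 lowest p between lines, up to 3 called in 1 line, the 5 most abundant called, and the product classes described, of which the text gives a selection. The libraries, lists and rules were chosen with earlier results of these data known. Patterns on product names matched at most 4 genes outside the cuticle proteins. The fits were tested on simulated data.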

Additional observations from a re-analysis of the deposited data

Results flagged for a closer look

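In 319 groups of 5 or 6 libraries, formed by the genes and library measures above, 32 had 1 library set apart from the rest of its group by Dixon's test, where about 5% are by chance, and the genes are not independent.

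Family F1_18 stood low among the F1 full-care families in cuticle genes: LOC108557124 (151 CPM), LOC108563891 (616 CPM), LOC108561729 (35.2 CPM), LOC108558459 (86.0 CPM), LOC108561837 (30.3 CPM) and LOC108567288 (2.81 CPM), and in their sum (1440 CPM, the other 5 at 4370 to 7170). It was also low in LOC108557229 (0.386 CPM), in the sum of the stretch of 7 falls (140 CPM, the other 5 at 501 to 973) and in LOC108564697 (39.4 CPM). Among F1 no-care families, F1_06 was low in LOC108563891 (5.38 CPM), LOC108567288 (1.23 CPM) and LOC108557233 (0.966 CPM) and high in LOC108559212 (569 CPM).

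Family F1_09A was high in LOC108557101 (90.9 CPM), LOC108558050 (652 CPM), LOC108558371 (238 CPM) and gene11261 (0.0183 CPM). F2_26, among full-care families, was high in LOC108558321 (112 CPM) and LOC108558050 (273 CPM), and F1_20 in LOC108558332 (0.0574 CPM), LOC108558390 (3.96 CPM) and gene11814 (0.0287 CPM). F1_14 was high in LOC108556759 (122 CPM) and low in LOC108564048 (0.0357 CPM). F2_41, without care, was high in gene11261 (0.0318 CPM) and LOC108560350 (3.11 CPM), and F2_43 in LOC108557815 (12.6 CPM). The flagged values of gene11261, gene11814 and LOC108558332 lie near the floor and stand apart only because the other libraries of their groups were at 0 CPM. Low values stood in F2_28 for LOC108557216 (3.0 CPM), F2_34 for LOC108557889 (13.6 CPM), and F1_01 and F1_16 for LOC108569111 (0.552 and 0.295 CPM).

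The effect of the environment on the spread between families differed between lines by -22.6 (F2 minus F1, each no care minus full care), with an unadjusted permutation p of 0.0306 that did not pass adjustment.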

How the results depend on the processing

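No paired analysis was possible because each family was sequenced in 1 environment and no numbers are shared. The pooled count stayed within 1.5 times its value under other tools, filters and covariates (675 to 1006 calls) and in leave-one-out fits (680 to 909). DESeq2 called 591 genes in F1, 695 in F2 and 2 for the difference between lines. The line fitted alone gave 192 in F1 and 216 in F2, and an adjusted p under 0.05 gave 711 and 821 in F1 and F2. Left-out libraries moved F1 from 109 to 329 and F2 from 203 to 508, the difference between lines giving 0 throughout. F1 counts moved by over 1.5 times without F1_09A (109), F1_16 (157), F1_06 (181) or F1_14 (189), and F2 counts without F2_34 (203), F2_28 (208), F2_36 (216) or F2_27 (240). Chosen after seeing the data, the fit without families F1_14, F1_16, F2_27 and F2_34 called 400 genes pooled, 102 in F1 and 136 in F2, and LOC108557734 turned to 0.31. The fit without F1_09A and F2_36 called 571, 104 and 213. The cause was not tested. The correlation of the lines was 0.885 for genes of at least 500 counts and 0.737 to 0.794 with a library left out. Leave-one-out gave 25.2 to 28.9% for the environment's variance share, -16.6 to -10.8 for the spread, and 97.9 to 100% and 98.2 to 100% same sign for genes called in F1 and F2. Of the 826 called genes, 14 had a median of 0 counts without care and 49 with care, so the sizes of their folds are not firm. The variant named "without filter change" could not be run.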
